A study of Mus musculus with 82 samples.

Results

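The 1883 regions described here carried NIPBL, the loader of cohesin, but neither H3K27ac nor CTCF, in mouse stembryos. Stembryos, also called gastruloids, are aggregates of mouse embryonic stem (mES) cells that elongate after a pulse of the Wnt agonist Chiron and resemble the posterior body axis of the embryo. Peak lists of 8 wild-type (wt) NIPBL libraries, 1 each at 72, 84, 96, 108, 120, 132, 144 and 168 h after aggregation, were merged into 70345 regions. Of these, 24516 were called in at least 3 of the 8 lists and are named recurrent here. A recurrent region entered the set when it shared no base with any of 13 wt H3K27ac lists (48 to 168 h) and with neither of the wt CTCF lists (72 and 168 h). The regions were thus selected on the measured NIPBL, H3K27ac and CTCF peaks, and the values of these assays there are given as a description, without a test. Of the other recurrent regions, 15494 overlapped H3K27ac alone (the H3K27ac class), 841 overlapped CTCF alone (the CTCF class) and 6298 overlapped both.

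Total RNA polymerase II (PolII, 8 lists), the cohesin subunit RAD21 (16 lists), H3K27me3 (6 lists), elongating PolII phosphorylated at Ser2 (pSer2 PolII, 5 lists) and CDX2 (3 lists) were also profiled in wt stembryos, and the rule did not use them. A further 19 lists came from lines with mutated CTCF-binding sites (CBS) in the HoxD cluster, namely Del(CBS1), Del(CBS1-2), Del(CBS1-5), Del(CBS2), Del(CBS4) and Ins(2xCBS-d4d8). The Del(CBS1-5) cells came from blastocysts of a mutant mouse strain, whereas the other mutants were edited from the wt mES cells, so genotype and origin of the cells cannot be told apart for Del(CBS1-5). Every list came from whole stembryos that hold several cell types, so strong binding in few cells and weak binding in many cannot be told apart. The axial genes T and Sox2 had an H3K27ac region at their promoters in all 13 wt lists, the pluripotency gene Pou5f1 had one in 4 lists between 48 and 96 h, and the somitic gene Meox1 had one in the 6 lists from 108 to 144 h and none at 168 h. The NIPBL lists held between 4888 regions at 84 h and 40490 at 144 h. The lists at 72 and 84 h were by far the shortest, which bears on every count by stage.

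NIPBL loads the cohesin ring onto DNA and drives the extrusion of chromatin loops. Cohesin then accumulates where CTCF blocks it. NIPBL in ChIP is commonly strongest at active promoters and enhancers, which carry H3K27ac. H3K27me3 is deposited by Polycomb at developmental genes that are kept silent. REST (also called NRSF) is a zinc finger repressor of neuronal genes that binds a long word made of a left and a right part, the RE1.

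The sequences that recurred among the regions are shown first. All were read from the reference sequence (GRCm38, the same assembly as mm10 used by the authors), and the words and the regions shown were chosen after their values were seen. RE1 was searched on both strands as GCTGTCC and GGTGCTGA, 2 bases apart and with at most 2 mismatches, in the 200 bases around the strongest NIPBL summit of each region. It was found in 90 of the 1883 regions (4.78%, 95% exact binomial interval 3.86 to 5.84%), against 0.726% of all recurrent regions. The 12 matches below are from regions called in at least 7 NIPBL lists or with H3K27me3 in all 6 lists. The search allowed at most 2 mismatches, so their likeness to the word follows from the search. Both parts of the word are in capitals.
Slc7a14 at chr3:31309043-31309071, minus strand: tgtgccGCTGTCCggGGTGCTGAaagttg
Camta1 intron at chr4:151604683-151604711, plus strand: ctgggcGCTGTCCctGGTTCTGAacggtc
Vgf at chr5:137030271-137030299, plus strand: gcgggcGCTGTCCagCGTGCTGAagccgg
Iqsec3 at chr6:121473215-121473243, plus strand: ccaggaGCTGACCgtGGTGCTGAagcggc
Erich1 at chr8:14072764-14072792, minus strand: tgtggtGCTGTCCttGGTGCTGAccccag
A230050P20Rik at chr9:20857314-20857342, plus strand: tagggaGCTGTCCgcAGTGCTGAcgagga
Nefh at chr11:4949393-4949421, minus strand: gcggctGCTGTCCgtGGTGCTGAagcgat
Fbll1 at chr11:35799051-35799079, minus strand: gaggtaGCTGTCCctGGTGCTGActggac
Sez6 at chr11:77930899-77930927, plus strand: ccaggcGCTGGCCgtGGTGCTGAttctgt
Tunar at chr12:105322290-105322318, plus strand: agtgctGCTGTCCatGGTTCTGAgctatc
Pnma2 at chr14:66909886-66909914, plus strand: ccgggcGCTGGCCgtGGTCCTGAcctcct
Npas4 at chr19:4989155-4989183, minus strand: gcaggaGCTGTCCgcGGTGCTGAatccca

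The second recurring sequence is the code of a peptide. Tandem C2H2 zinc fingers are joined by a short conserved linker peptide. DNA that matches its code was found in 77 of the regions (4.09%, 3.24 to 5.08%), against 0.449% of all recurrent regions. The whole region was searched on both strands. Of the 77, the centre of 39 lay in a coding exon, and 13 overlapped an annotated pseudogene. The 4 stretches below lie inside zinc finger gene regions, run 5′ to 3′ on the coding strand and hold 3 linkers each, in capitals. One finger separates each linker from the next.
2410141K09Rik at chr13:66431946-66432134, minus strand: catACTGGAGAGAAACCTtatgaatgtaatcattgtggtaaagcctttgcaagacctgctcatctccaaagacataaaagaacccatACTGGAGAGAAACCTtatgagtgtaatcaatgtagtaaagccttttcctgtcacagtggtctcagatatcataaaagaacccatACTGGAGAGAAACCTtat
Zfp2 at chr11:50900663-50900851, minus strand: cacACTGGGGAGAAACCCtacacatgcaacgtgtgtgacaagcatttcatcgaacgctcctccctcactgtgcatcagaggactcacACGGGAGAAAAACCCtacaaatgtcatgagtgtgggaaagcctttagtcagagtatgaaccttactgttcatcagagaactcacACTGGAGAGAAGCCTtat
Zfp930 at chr8:69228108-69228296, plus strand: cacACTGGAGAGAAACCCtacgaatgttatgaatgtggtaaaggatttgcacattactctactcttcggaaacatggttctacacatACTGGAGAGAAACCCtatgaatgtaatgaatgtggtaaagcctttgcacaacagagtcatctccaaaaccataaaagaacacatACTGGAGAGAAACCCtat
AW146154 at chr7:41480962-41481150, minus strand: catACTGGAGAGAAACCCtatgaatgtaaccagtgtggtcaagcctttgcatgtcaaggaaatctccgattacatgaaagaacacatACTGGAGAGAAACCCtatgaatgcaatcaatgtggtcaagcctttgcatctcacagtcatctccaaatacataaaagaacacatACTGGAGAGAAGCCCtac

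The CDX word TTTATGA was present in 123 of the regions (6.53%, 5.46 to 7.74%), against 3.7% of all recurrent regions. Beyond 1 kb of a start the share was 6.95% (5.79 to 8.26%), beside 6.49% (5.98 to 7.03%) in the H3K27ac class. CDX2 is the homeodomain factor that drives posterior axis growth, and the 2 matches below lie in regions that also had a CDX2 peak region, with the word in capitals and 60 bases shown.
Zcchc2 at chr1:106086930-106086989, minus strand: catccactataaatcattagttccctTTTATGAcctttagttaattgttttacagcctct
Dhx35 at chr2:159069452-159069511, minus strand: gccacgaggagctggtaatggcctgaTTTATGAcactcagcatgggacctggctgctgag

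A group of 18 regions lay within 1 kb of a transfer RNA (tRNA) gene, which RNA polymerase III transcribes. Their share (0.956%, 0.567 to 1.51%) was near that of all recurrent regions (0.669%), so they are shown as a description of the regions and not as a trait of them. The 3 genes below lie in a single region, chr13:23500079-23501254, that was called in all 8 NIPBL lists. The internal promoter word of RNA polymerase III, GTTCGANTC (the B box), is in capitals in the genes that matched it.
tRNA-Met at chr13:23500080-23500151, plus strand: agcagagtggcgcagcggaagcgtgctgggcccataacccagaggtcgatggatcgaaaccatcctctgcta
tRNA-Arg at chr13:23500522-23500594, minus strand: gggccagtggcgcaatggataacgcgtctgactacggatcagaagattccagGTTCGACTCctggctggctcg
tRNA-Ser at chr13:23500957-23501038, minus strand: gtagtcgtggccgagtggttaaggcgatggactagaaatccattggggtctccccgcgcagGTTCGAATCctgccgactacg

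Most of the regions lay away from promoters. Only 171 (9.08%, 7.82 to 10.5%) were within 1 kb of a transcription start, against 47.2% of all recurrent regions, 45.0% of the H3K27ac class and 10.9% of the CTCF class. A further 447 lay 1 to 10 kb from a start, 936 lay 10 to 100 kb away and 329 (17.5%) lay farther than 100 kb. The last share was 8.28% in the H3K27ac class and 7.61% in the CTCF class. The median distance was 21705 bp, compared with 3465 and 12498 bp in those classes. By annotation, 927 regions were intergenic and 821 were intronic, whereas 62 lay in coding exons and 39 in untranslated exons. The regions were of moderate size, from 220 to 2529 bp with a median of 607 bp, and the median of the H3K27ac class was 904 bp. They were poorer in GC than the H3K27ac class (44.9% against 53.8%) and held more repeat-masked sequence (15.2% against 8.45%). Beyond 1 kb of a start the H3K27ac class had 48.0% GC and 11.2% repeats, and the regions had 44.2% and 15.5%. The CTCF class had 44.3% and 13.7%, close to the regions. Not all were far from the excluded marks, since 662 (35.2%) had a wt H3K27ac or CTCF region within 1 kb.

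**Figure D1:**
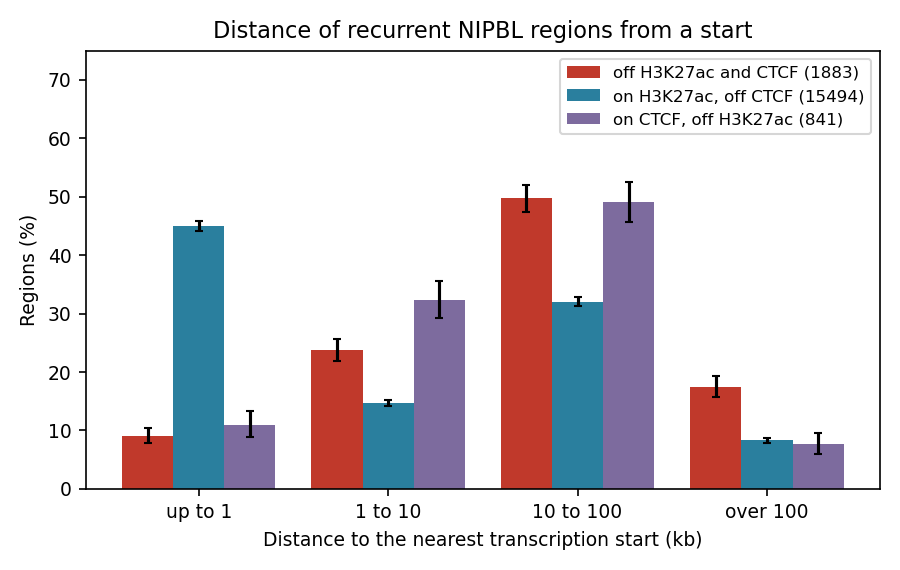
Percent of regions (vertical axis) in each class of distance to the nearest transcription start in kb (horizontal axis), for the regions off H3K27ac and CTCF, the H3K27ac class and the CTCF class, with 95% exact binomial intervals as error bars. The regions off both marks had 9.08% within 1 kb, as against 45.0% in the H3K27ac class, and 17.5% beyond 100 kb.

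The regions were spread over all 21 chromosomes, from 3 on chromosome Y and 19 on chromosome X to 148 on chromosome 2. Per Mb, chromosome 13 was the densest with 0.963, and it held 13 of the 18 tRNA regions. Another such region lay within 50 kb for 313 of them (16.6%), and the median gap between neighbours on a chromosome was 726 kb. No share for random placement was computed, so clustering was not tested. The gene spans that held most regions were long or overlapped zinc finger loci. Gm20388, a readthrough transcript annotated over 4435 kb, held 8 among 121 recurrent regions, and the noncoding Gm26573 on chromosome 4 held 7 among 19. Zfp536 held 4 among 6, Hdac9 4 among 8 and Dach1 4 among 9, while Mecom and Fhit held 4 among 12 each. Zfp536, Dach1 and Mecom encode transcriptional regulators of development, and Hdac9 encodes a histone deacetylase.

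NIPBL was called at these regions mainly late. From 72 to 168 h the successive lists called 88, 112, 645, 863, 1068, 1168, 1731 and 1439 of them, which is 4.67, 5.95, 34.3, 45.8, 56.7, 62.0, 91.9 and 76.4%. The number rose at every step up to 144 h. Of all recurrent regions the same lists called 21.2, 17.4, 70.7, 63.1, 62.9, 69.9, 94.6 and 86.6%. The share of the regions was thus under that of all recurrent regions at every stage, and both were highest at 144 h. The H3K27ac class also had 94.1% called at 144 h. The whole NIPBL list held 34332 regions at 96 h and 18588 to 20905 at 108, 120 and 132 h. The wt H3K27ac lists that excluded regions were also unequal, with the fewest regions (24002) at 144 h. The longest at 96 and 120 h held 59284 and 53644. How this bears on the stage pattern was not tested. The CTCF class instead had 71.5% called at 96 h and 35.6% at 132 h, and the H3K27ac class had 67.9% and 71.2%. Only 139 regions (7.38%) were called at 72 or 84 h, compared with 26.1% of the H3K27ac class and 6.18% of the CTCF class. The commonest of 92 patterns was 132, 144 and 168 h alone (275 regions), followed by 120 to 168 h without a gap (220 regions). All of 132, 144 and 168 h called 888 regions (47.2%), and 988 (52.5%) were called in an unbroken run of stages.

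**Figure D2:**
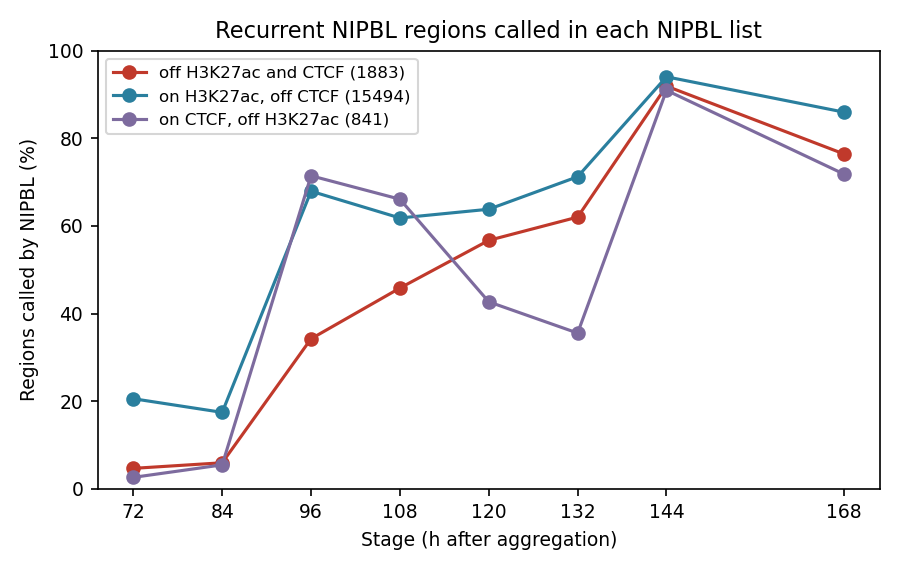
Percent of regions (vertical axis) called in the single NIPBL list of each stage (horizontal axis, h after aggregation) for the 3 classes, without error bars as each stage had 1 library. The regions off both marks climbed from 4.67% at 72 h to 91.9% at 144 h, while the CTCF class peaked at 96 and 144 h and fell to 35.6% at 132 h.

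Recurrence was low for most of them. In all, 998 regions were called in 3 lists, 491 in 4, 260 in 5, 96 in 6, 24 in 7 and 14 in all 8. Regions off both marks made up 48.7% of merged regions called in 1 list, 14.8% of those called in 3 and 0.716% of those called in all 8. Just outside the threshold stood 3374 regions in 2 lists, with a median length of 461 bp, compared with 553.5 bp at 3 lists and 636 bp at 4. RAD21 overlapped 38.2%, 45.7% and 50.3% of these steps, PolII 2.64%, 3.41% and 5.50%, and CDX2 3.79%, 8.92% and 11.8%. Heights of different regions were compared by the rank of a summit's fold enrichment within its own list, where 100 is the highest. Fold enrichments and fragments come from libraries of different depth, and the values given below for single regions by stage are a description. The median rank was 59.6 for the regions, 62.4 for the H3K27ac class and 52.8 for the CTCF class. Among regions called in all 8 lists it was 87.9, against 75.5 in the H3K27ac class. At 144 h the median summit held 29 fragments, and that of the H3K27ac class held 37.

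PolII was scarce. At least 1 of 8 wt PolII lists overlapped 101 regions (5.36%, 4.39 to 6.48%), against 57.1% of all recurrent regions, 56.3% of the H3K27ac class and 8.44% of the CTCF class. From 72 to 168 h the successive lists overlapped 51, 44, 28, 30, 37, 40, 55 and 60 regions. Every stage stayed between 1.49 and 3.19% of the regions. Averaged over stages the share was 2.29%, and in the H3K27ac class it was 43.6%, a difference of -41.3 percentage points ± 2.95 (SD, n = 8 stages, adjusted p = 0.00781, two-sided exact sign-flip permutation test, lower in 8 of 8). The difference from the CTCF class was -1.40 points ± 0.447 (SD, n = 8 stages, adjusted p = 0.00781, same exact test, lower in 8 of 8). Its size was less certain, at -2.27 points without the 96 h NIPBL library and -0.752 points without that at 132 h. This p is the smallest that 8 stages can give, and p-values were adjusted over 4 class comparisons. Beyond 1 kb from a start the difference from the H3K27ac class was -9.03 points (adjusted p = 0.00781, exact test), and among regions in exactly 3 lists it was -21.6 points. Over time the share had no trend past its threshold (Spearman's rho = 0.405, adjusted p = 0.327; Pearson's r = 0.450, adjusted p = 0.263; exact permutation tests over 8 stages, 2 time relations). Without 72 and 168 h r was 0.530 (exact permutation p = 0.289).

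The regions with PolII sat closer to genes. Of the 101, 36 lay within 1 kb of a start (35.6%, 26.4 to 45.8%), while 135 of the 1782 without PolII did (7.58%, 6.39 to 8.90%). In the H3K27ac class 6455 of the 8729 regions with PolII lay there, and in the CTCF class 13 of 71. RAD21 overlapped 81 of the 101 (80.2%) and 50.4% of the others, and pSer2 PolII overlapped 44. Among the 1221 regions with no wt H3K27ac or CTCF region within 1 kb, PolII overlapped 3.52% and starts fell to 5.49%. In all 8 PolII lists 17 regions were overlapped, against 38% of all recurrent regions, and 38 regions were overlapped in a single list. Of the 17, 11 lay within 1 kb of a start, 4 were near a small RNA gene and 10 also had pSer2 PolII.

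The region at the start of Inafm2 (chr2:118745122-118745798) had NIPBL fold enrichments of 5.57, 5.42, 5.15, 6.10, 5.50, 8.95, 8.26 and 7.39 from 72 to 168 h. The last 3 stages were the highest. It had PolII in all 8 lists, H3K27me3 in 3 of 6 lists and RAD21 in none of 16. A pair of regions in an intron of Tex14, chr11:87443295-87443936 and chr11:87448685-87449499, covered the U3 small nucleolar RNA genes Rnu3b1 and Rnu3b3, whose RNA takes part in ribosomal RNA processing. Both had NIPBL and PolII in all 8 lists, pSer2 PolII in all 5 and RAD21 in 11 of 16. These genes are near-identical copies, so the share of reads that belongs to each is uncertain. The histone H4 gene Hist1h4n (chr13:21831979-21832318) had PolII in all 8 lists but NIPBL only from 120 h on, with fold enrichments of 11.7, 8.40, 11.98 and 10.6 and ranks of at least 98.8. Histone genes of the replication-dependent clusters are a multigene family, and RAD21 was not called there. Other regions with PolII in all 8 lists lay at the starts of Hs6st1, Lix1l, Gna12, Rcn3, Mprip, Bahcc1 and Tnk2, and near the translation factor gene Eif4g2 and the RNA-binding protein gene Hnrnpa2b1.

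Elongating PolII overlapped 115 regions in at least 1 list (6.11%, 5.07 to 7.29%), against 40.9% of all recurrent regions and 37.8% of the H3K27ac class. The lists at 72, 84, 96, 120 and 144 h overlapped 64, 19, 75, 59 and 42 regions. The 84 h list was the shortest, with 3987 regions, followed by the 144 h list with 6674. They overlapped 6.47 and 10.4% of all recurrent regions, and the other pSer2 PolII lists 26.8 to 37.3%. Of the 115, 71 had no PolII region in any of the 8 total PolII lists. Zinc finger linkers were present in 34 of the 115 (29.6%), and 30 of these 34 lacked total PolII. The classes were not compared by a test, as the exact sign-flip test over 5 stages cannot pass its threshold, and the change over time was not tested.

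RAD21 overlapped 979 regions in at least 1 of 16 lists (52.0%, 49.7 to 54.3%), against 88.1% of all recurrent regions, 87.3% of the H3K27ac class and 99.2% of the CTCF class. Overlap was irregular. A single list overlapped each of 382 regions, 51 were overlapped in at least 8 lists (against 36.6% of all recurrent regions) and none in more than 14. The 48 h list overlapped 21 regions and the 168 h list 67. The pairs of lists at 72 and 84 h overlapped 81 and 20, and 126 and 62. At 96 h the 3 lists overlapped 288, 83 and 95, so replicate 1 stood apart from the other libraries of that stage. The later lists overlapped 234 and 182 regions (108 h), 361 and 362 (132 h), and 268, 230 and 251 (144 h). The highest counts were thus those at 132 h. All recurrent regions varied in a similar way, with 59.8 and 64.1% overlapped by the lists at 132 h. The 3 lists at 96 h overlapped 60.5, 25.6 and 24.8% of them. The 168 h list, with 34316 regions, overlapped 30.4%.

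Averaged over libraries and then stages, RAD21 overlapped 8.01% of the regions, compared with 24.9% of the H3K27ac class and 88.0% of the CTCF class. The difference from the H3K27ac class was -16.8 points ± 11.1 (SD, n = 8 stages, adjusted p = 0.00781, two-sided exact sign-flip permutation test, lower in 8 of 8), and it ranged from -34.6 to -2.996 points. With at least 50% of a region covered by RAD21 it was -4.85 points (adjusted p = 0.00781, exact test). The difference from the CTCF class, where cohesin is known to reside, was -80.0 points ± 3.84 (SD, n = 8 stages, adjusted p = 0.00781, same exact test, lower in 8 of 8). Over time, rho was 0.619 (adjusted p = 0.230) and r was 0.504 (adjusted p = 0.263; exact permutation tests over 8 stage means). Without 48 and 168 h r was 0.894 (exact permutation p = 0.0181). The relation turned on the single 168 h library, without which rho was 0.964 (adjusted p = 0.00556, exact permutation test over 7 stages). The labels file the mES cells of some RAD21 libraries under a cell line and of others under a cell type. Within the former rho was 0.929 (adjusted p = 0.0135, exact permutation test), within the latter it was 0.214 (adjusted p = 0.662, exact permutation test), and the 168 h library is of the latter kind. With stages permuted within replicate number, as a replicate block, r over the 16 libraries was 0.587 (adjusted p = 0.0573, permutation test).

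**Figure D3:**
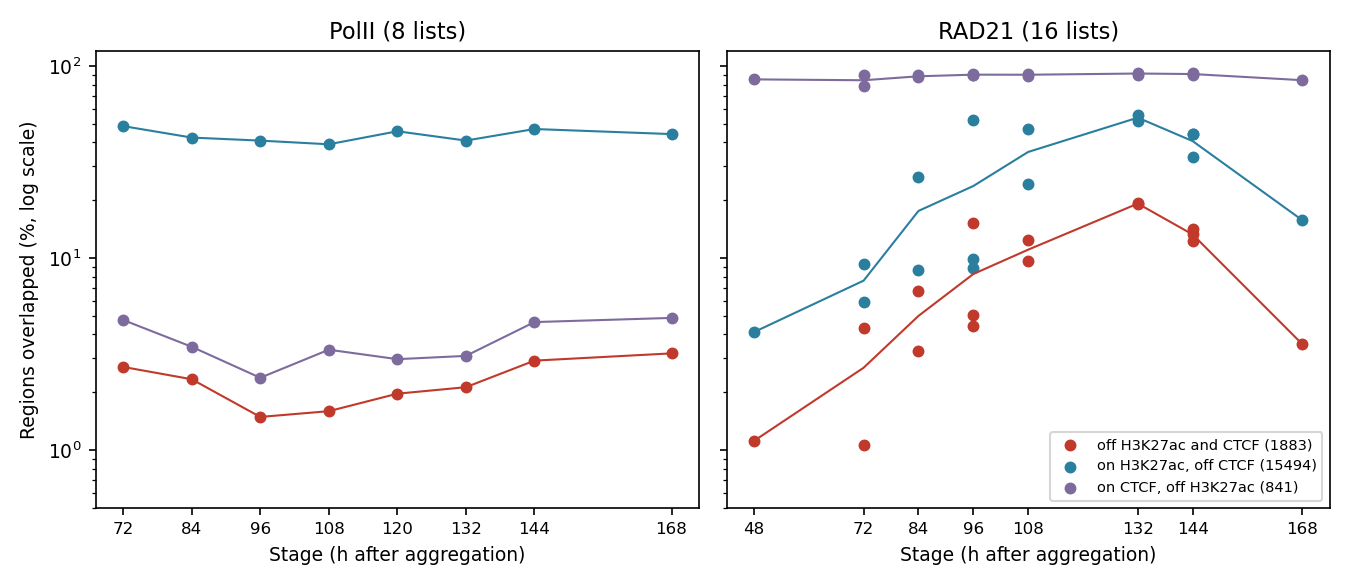
Percent of regions overlapped (vertical axis, log scale) by each PolII list and each RAD21 list at its stage (horizontal axis, h after aggregation), with 1 point per library and class. PolII stayed between 1.49 and 3.19% of the regions off both marks at every stage, and RAD21 reached 19.2% of them at 132 h, far under the CTCF class.

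The 4 regions with RAD21 in 14 of 16 lists, the most of any, were called in 6 to 8 NIPBL lists. In 14 of 16 lists RAD21 overlapped a region 823 bp from Vstm2l (chr2:157912945-157913830), whose NIPBL fold enrichments were 4.01, 4.54, 6.46, 10.1, 7.94, 7.96, 10.997 and 9.79 from 72 to 168 h. The low values were those at 72 and 84 h. The Camta1 intron with the RE1 word shown above (chr4:151604205-151605504) had RAD21 in 14 lists and fold enrichments of 3.83, 6.82, 10.4, 6.82, 8.04, 9.22 and 6.38 in the 7 lists that called it, all but 84 h. Camta1 encodes a calmodulin-binding transcription activator. The intergenic region chr4:152799306-152799933 and the Erich1 intron with RE1 (chr8:14072335-14073236) had RAD21 in 14 lists as well. A region at the start of A730060N03Rik (chr15:78119561-78120218), inside Cacng2, which encodes a regulatory subunit of AMPA receptors, had RAD21 in 13 lists and fold enrichments up to 15.5 at 108 h. None of these 5 had PolII or H3K27me3 in any wt list. In contrast, 752 of the 1883 regions (39.9%) had no wt region of PolII, pSer2 PolII, RAD21, H3K27me3 or CDX2, and 536 (28.5%) had none in a mutant list either. Of all recurrent regions 7.51% and 2.70% had none, of the H3K27ac class 6.96% had none in wt, and of the CTCF class 0.595%.

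Regions called by NIPBL at more stages were overlapped mostly more often by the other proteins. From 3 to 8 NIPBL lists the RAD21 share was 45.7, 50.3, 61.2, 86.5, 87.5 and 92.9%, and the CDX2 share was 8.92, 11.8, 20.4, 43.8, 29.2 and 78.6%. PolII went from 3.41 to 28.6%. The last 2 steps held 24 and 14 regions. In the H3K27ac class the RAD21 share over the same steps went from 76.4 to 97.2% and the PolII share from 37.9 to 96.4%. The 139 regions called at 72 or 84 h had PolII in 19.4%, RAD21 in 77.0%, H3K27me3 in 11.5% and CDX2 in 29.5%. The 1744 others had 4.24%, 50%, 3.44% and 12.6%. In the H3K27ac class PolII was found in 86.2% of the regions called at 72 or 84 h and in 45.8% of the others. In the CTCF class the shares were 51.9% and 5.58%. RAD21 was found in 94.7% and 84.7% in the H3K27ac class, and in 100% and 99.1% in the CTCF class. For H3K27me3 the shares were 13.4% and 6.96% in the H3K27ac class, and 15.4% and 4.31% in the CTCF class. Those of CDX2 were 16.5% and 16.8% in the H3K27ac class, and 17.3% and 3.17% in the CTCF class.

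**Figure D4:**
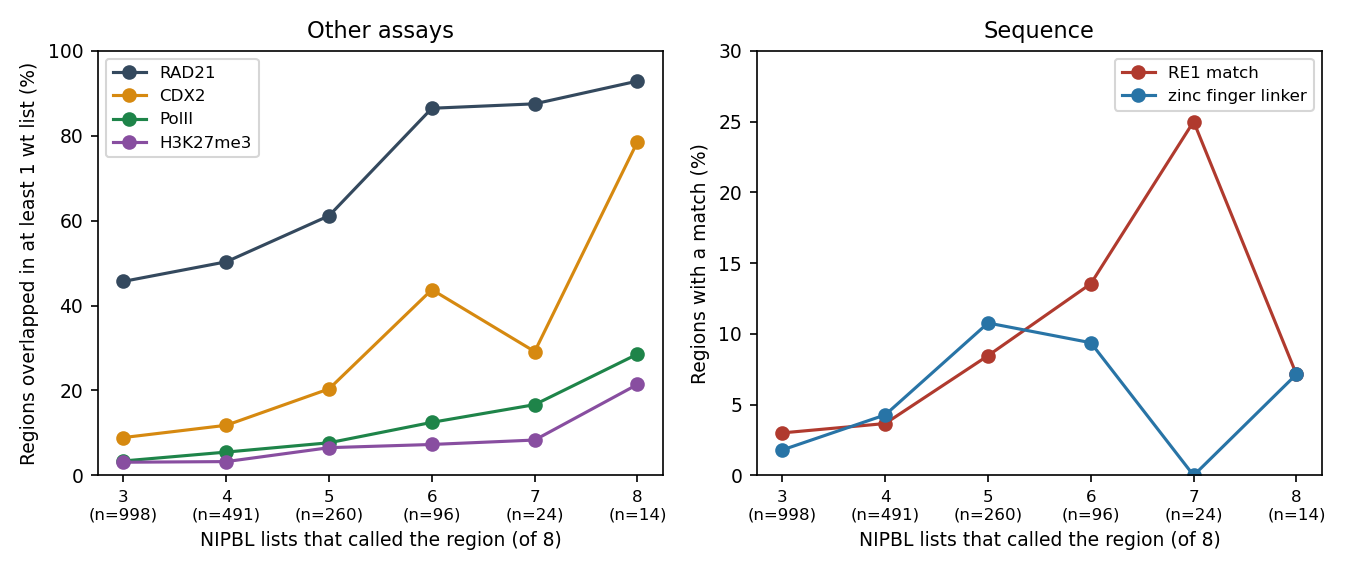
Left, percent of regions overlapped in at least 1 wt list (vertical axis) by RAD21, CDX2, PolII and H3K27me3 against the number of NIPBL lists that called the region (horizontal axis, with the number of regions). Right, percent with an RE1 match or a zinc finger linker on the same axis, where RE1 went from 3.01% at 3 lists to 25% at 7 and 7.14% at 8.

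H3K27me3 overlapped 76 regions (4.04%, 3.19 to 5.03%), against 10.1% of all recurrent regions, 8.64% of the H3K27ac class and 4.99% of the CTCF class. The list at 72 h overlapped 37, the 3 lists at 96 h overlapped 45, 50 and 60, and those at 120 and 144 h overlapped 60 and 44. The count at 120 h lay within the range of the 96 h lists, while those at 72 and 144 h lay under it. The 72 and 144 h lists were also the shortest, with 7732 and 7680 regions. They overlapped 4.07 and 5.03% of all recurrent regions, against 5.92 to 7.48% in the other lists. In all 6 lists 24 regions had H3K27me3 (against 2.05% of all recurrent regions). In contrast to the full set, 46 of the 76 (60.5%) lay within 1 kb of a start. So did 1107 of the 1339 regions with H3K27me3 in the H3K27ac class, and 23 of the 42 in the CTCF class. RAD21 overlapped 72.4% of the 76 and PolII 19.7%.

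Of the 24 regions with H3K27me3 in all 6 lists, 18 were within 1 kb of a start, 17 had RAD21, 7 had the RE1 word and 4 had PolII. Genes nearest to them were, for example, Nefh (neurofilament heavy chain), Grin1 (an NMDA receptor subunit), Gabbr2 (a GABA receptor), Scn8a (a sodium channel), Vgf (a secreted neuropeptide precursor), Sez6 and Nmnat2. Others were Bmp2 and Fgf9, which encode secreted signals, and Sox1, Isl2 and Insm2, which encode transcription factors. The Fgf9 region (chr14:58071827-58073149) was the one with PolII in 7 of 8 lists. The Npas4 region (chr19:4988691-4989729), 175 bp from the start of this activity-regulated neuronal factor, had NIPBL fold enrichments of 3.61, 6.66, 11.5, 6.79, 8.90, 9.47 and 9.12 from 84 to 168 h. It was highest at 108 h, and it had H3K27me3 in all 6 lists, RAD21 in 5 and PolII in none. The Vgf region (chr5:137029999-137030612) was called from 96 h on with H3K27me3 in all 6 lists and PolII only at 168 h.

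RE1 was present in 4.78% of the regions (3.86 to 5.84%), beside 0.290% of the H3K27ac class (0.212 to 0.388%) and 2.62% of the CTCF class (1.65 to 3.93%), whose interval touched that of the regions. In the CTCF class the share also went up with recurrence, from 0.915% at 3 NIPBL lists to 9.09% at 6 and to 30% of the 10 regions at 8. The word was chosen after the data were seen and no test was made. Of all 178 recurrent regions with RE1, 90 (50.6%) were off both marks. In 25 of the 90 the word had no mismatch, and in 65 its centre lay within 50 bases of the NIPBL summit, with a median distance of 35.5 bases. RAD21 overlapped 72 of the 90 (80%, 70.2 to 87.7%) against 50.6% of those without RE1, and RE1 was present in 12 of the 51 regions with RAD21 in at least 8 lists. H3K27me3 overlapped 14 (15.6%, 8.77 to 24.7%) against 3.46% of those without RE1, and PolII overlapped 1 and CDX2 3. The other classes also had more H3K27me3 at RE1. In the H3K27ac class it overlapped 22.2% with RE1 and 8.60% without, and in the CTCF class 18.2% and 4.64%. The successive NIPBL lists called 5, 6, 71, 87, 34, 44, 86 and 67 of the 90 from 72 to 168 h. The counts were thus high at 96 and 108 h and dipped at 120 and 132 h, unlike the full set but as in the CTCF class, which had 71.5, 66.1, 42.7, 35.6, 91.0 and 71.8% called from 96 to 168 h.

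The zinc finger regions behaved otherwise. Of the 110 recurrent regions with the linker sequence, 77 (70%) were off both marks. They held up to 20 linkers, with a median of 7, and had a median length of 1029 bp against 600 bp for the remainder. Of the 31 regions of at least 1500 bp, 20 had a linker. Coding exons held 39 of the 77, 13 overlapped an annotated pseudogene and 30 overlapped a gene with a zinc finger symbol such as Zfp. The successive NIPBL lists called 1, 3, 12, 74, 47, 70, 76 and 57 of them from 72 to 168 h. The step from 96 to 108 h was the largest. Elongating PolII overlapped 34 (44.2%, 32.8 to 55.9%) against 4.49% of the regions without a linker. The lists at 72, 84, 96, 120 and 144 h overlapped 20, 0, 26, 21 and 1 of the linker regions. The 84 and 144 h lists were short, with 3987 and 6674 regions against 16045 to 24177 in the others. Of the 77, total PolII overlapped 4, RAD21 25 (32.5%, 22.2 to 44.1%), CDX2 2 and H3K27me3 none. For none, 77 regions allow a share of up to 3.896% (3 counts). Zinc finger genes are repetitive and near-identical, and reads that map to several copies were removed, so the assignment of reads among copies is uncertain. Of 394 Zfp genes 32 held a region (8.12%), and of 21938 protein-coding genes 802 did (3.66%).

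The region in 2410141K09Rik (chr13:66431014-66432462), with 13 linkers, was the only one of the 77 called in all 8 NIPBL lists. Its fold enrichments were 3.11, 3.97, 4.18, 5.77, 4.88, 6.31, 5.78 and 5.34 from 72 to 168 h, the 3 earliest being the lowest. It had RAD21 in 13 lists and PolII in 5. The regions in Zfp2, Zfp930 and AW146154 were called from 96 h on in 6 lists, with pSer2 PolII in 2 lists and no total PolII.

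The 18 tRNA regions had no total PolII in any list, which with 3 counts as the limit allows a share of up to 16.7%, RAD21 in 12 and H3K27me3 in none. The successive NIPBL lists called 2, 3, 17, 11, 11, 8, 18 and 16 of them from 72 to 168 h. Of 403 tRNA genes annotated by RefSeq, 25 lay within 1 kb of such a region (6.20%). The region with the 3 genes shown above had fold enrichments between 3.39 at 84 h and 4.65 at 144 h, and RAD21 in 8 of 16 lists. It was intergenic, 11222 bp from Btn2a2.

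**Figure D5:**
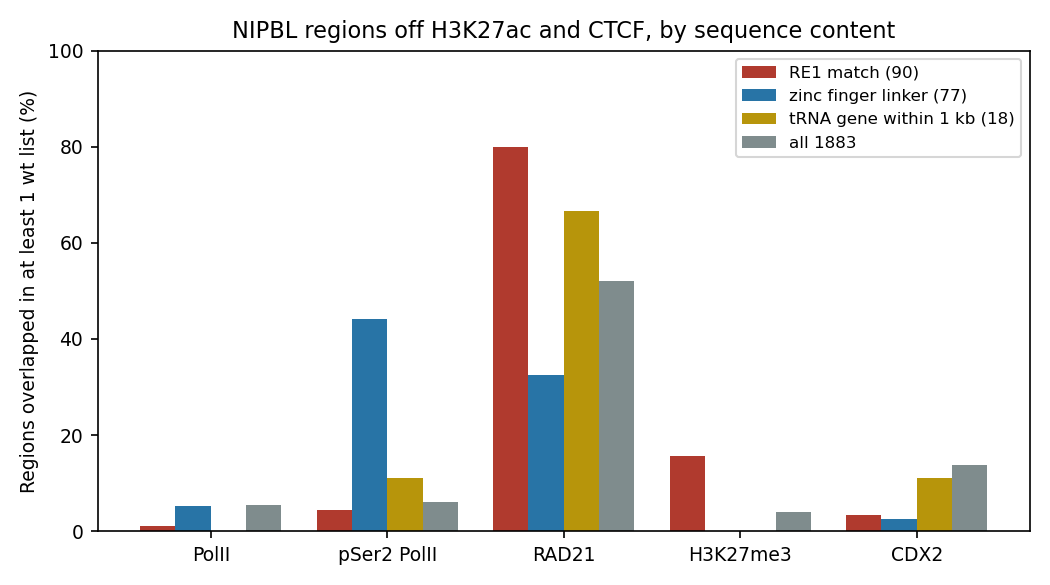
Percent of regions overlapped in at least 1 wt list (vertical axis) by PolII, pSer2 PolII, RAD21, H3K27me3 and CDX2 (horizontal axis), for regions with RE1 (90), with a zinc finger linker (77), near a tRNA gene (18) and for all 1883. RE1 regions had the most RAD21 (80%) and H3K27me3 (15.6%), and linker regions had the most pSer2 PolII (44.2%).

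CDX2 overlapped 260 regions (13.8%, 12.3 to 15.4%), close to the 14% of all recurrent regions, against 16.7% of the H3K27ac class and 4.04% of the CTCF class. The lists at 72, 96 and 120 h overlapped 5, 208 and 145 regions. The 72 h list held only 147 regions. RAD21 overlapped 70.8% of the regions with CDX2 and 49.0% of those without, while starts within 1 kb were found in 3.85% and 9.92%. The CDX word was present in 12.7% of the regions with CDX2 and in 5.55% of those without. Both regions with the CDX word shown above were far from a start. That near Zcchc2 had CDX2 in 2 lists and no RAD21, and that nearest Dhx35 had CDX2 in all 3 lists and RAD21 in 6.

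Among words searched within 200 bases of the summit, the forkhead words TGTTTAC and TGTTTAT, bound by FOX factors, were present in 18.4% of the regions (16.7 to 20.3%), against 9.5% of all recurrent regions and 10.0% of the H3K27ac class. Beyond 1 kb of a start the shares were 18.9% and 14.8%. The SP word GGGCGG, common in CpG-rich promoters, was present in 4.89%, against 25.7% of all recurrent regions. Beyond 1 kb of a start it was present in 3.21% of the regions and 6.18% of the H3K27ac class. TATAAA was present in 17.3% and the GATA word AGATAA in 16.4%, against 9.17% and 8.92% of the H3K27ac class. Beyond 1 kb of a start the H3K27ac class had 13.2% and 13.3%, and the regions had 17.5% and 17.1%. The CTCF class had 21.6% and 12.7%, so TATAAA was no higher in the regions. The CTCF words AGGGGGCG and AGGTGGCA were present in 1.01% of the regions, 3.66% of the H3K27ac class and 11.5% of the CTCF class. A match describes the letters of the window and not a bound site.

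Hox genes, which set positional identity along the axis, held regions in 8 of 39 genes (20.5%), beside 3.66% of all protein-coding genes, with no test. A gene counted when a region lay within its span extended by 1 kb, so a single region can count for several neighbouring genes. The share of Hox genes with any recurrent region is not given here. The region nearest Hoxb13 (chr11:96189944-96191078, 3238 bp away) was called in all 8 NIPBL lists, with fold enrichments of 7.73, 6.42, 4.52, 6.93, 6.36, 9.29, 8.36 and 6.32 from 72 to 168 h. It was lowest at 96 h and highest at 132 h. It had H3K27me3 in 4 of 6 lists, RAD21 in 4 of 16 and no PolII. The other regions in or beside the clusters were mostly low against their local background. The region by Hoxb7 and Hoxb8 (chr11:96285140-96285584) had PolII in all 8 lists, that at Hoxb5os (chr11:96306839-96307324) and that at Hoxc6 (chr15:102997949-102998353) in 7, and their median ranks were 8.63, 10.9 and 3.14. The region chr11:96310632-96311024, 3722 bp from Hoxb5os, had fold enrichments of 1.69, 1.42 and 1.54 at 108, 144 and 168 h, at ranks of at most 0.159. Its summits nevertheless held 84, 167 and 172 fragments. In HoxD the only region lay in an untranslated exon of Hoxd4 (chr2:74727028-74727307), called at 132, 144 and 168 h at ranks of at most 0.995 with 36 to 102 fragments. The paper describes H3K27ac over the anterior HoxD genes, Hoxd4 among them, so absence here means only that no peak was called on these bases.

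Apart from Hox and Zfp genes, the lists of protein-coding genes each had 0 to 2 genes with a region, beside the 3.66% of all protein-coding genes. Of the replication-dependent histone genes 2 of 67 did (2.99%), of the streak and axial genes 1 of 30 (3.33%, Wnt5b) and of the somite and neural genes 1 of 13 (7.69%, Pax3). Ribosomal protein genes (0 of 84), cohesin and loader genes (0 of 15), pluripotency genes (0 of 21) and genes of translation and the cytoskeleton (0 of 20) held none. Small RNA genes held regions in 19 of 6059 (0.314%). Gene length was not matched. The median was 0.539 kb for histone, 3.33 kb for ribosomal protein and 0.107 kb for small RNA genes, against 17.4 kb for all protein-coding genes. Most lists are short, and no test was made on them.

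Mutant lists overlapped some regions that lacked the mark in wt by the rule. At least 1 of 8 mutant H3K27ac lists overlapped 438 regions (23.3%), against 86.9% of all recurrent regions. At 96 h the lists of Del(CBS1) overlapped 45 and 34 regions and those of Del(CBS1-2) 43 and 58. At 120 h they overlapped 117 and 163 for Del(CBS1), and 165 and 171 for Del(CBS1-2). The counts at 120 h were higher in both lines, and 19 regions were overlapped in all 4 lists at 120 h. The mutant H3K27ac lists were also longer at 120 h (61894 to 63020 regions) than at 96 h (54957 to 56828). They overlapped 74.0 to 77.0% of all recurrent regions at 120 h and 66.5 to 69.6% at 96 h. Since wt regions were excluded by the rule, the counts say nothing about a difference between mutant and wt. Mutant CTCF lists overlapped 113 regions, against 38.8% of all recurrent regions, with 74 in the Ins(2xCBS-d4d8) list at 144 h and 5 to 20 in the other lists, at 96 or 120 h. The Ins(2xCBS-d4d8) list was mapped to the mutant genome, whose positions past the insertion on chromosome 2 differ from mm10, and 1 of its 74 overlaps was on that chromosome. No wt CTCF list between 72 and 168 h was used here, so stage and genotype cannot be told apart. Mutant RAD21 lists overlapped 388 regions (20.6%), against 64.3%, and mutant H3K27me3 lists overlapped 51 (2.71%), against 5.8%. For Del(CBS1) at 96 h RAD21 overlapped 109 and 132 regions, and the wt libraries at that stage overlapped 288, 83 and 95. Of all recurrent regions the mutant libraries overlapped 34.4 and 33.7%, and those wt libraries 60.5, 25.6 and 24.8%. Both mutant libraries and the wt library with 95 are filed under a cell line, and the difference was not tested.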

How the data were processed

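H3K27ac, H3K27me3, CDX2 and pSer2 PolII were profiled by ChIP-seq, and CTCF, RAD21, NIPBL and PolII by ChIPmentation, in which Tn5 adds the adapters. Per the submitters' processing notes and the methods, the authors trimmed reads with cutadapt 1.16, mapped them with Bowtie2 2.3.4.1 to mm10 (for the Ins(2xCBS-d4d8) CTCF library, to a genome that carries the insertion), filtered with SAMtools 1.8 for proper pairs of high mapping quality and called peaks with MACS2 2.1.1.20160309, with no control library in the stated command. Each list came from 1 library, except the 144 h pSer2 PolII list, which pooled 3 samples. The deposited lists give the fold enrichment (the ratio of summit pileup to local background), −log10 p and −log10 q. Read depth is not in the lists, and the sequencing depths stated by the study, which differed between NIPBL stages, were not used here. Fragments at summits were solved from deposited fold enrichment and −log10 p (over 99% of NIPBL peaks, tolerance 0.001). Absence from a list means that the calling threshold was not passed, which depends on depth.

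Overlapping peaks were merged on 21 assembled chromosomes, and 13 further regions on unplaced sequences that met the rule were not used. Overlap meant at least 1 base. Genes came from GENCODE vM21, tRNA genes from RefSeq. Binomial intervals are 95% Clopper-Pearson and cover counting over regions only. A share of 0 was limited by 3 counts instead. Classes were compared by exact sign-flip tests over stages, and time by exact permutation of stages, with Benjamini-Hochberg adjustment over 4 and 2 relations and a threshold of 0.05. The unit was a stage. It held 1 library for PolII and the mean of the available libraries for RAD21, so p-values measure the spread between stages. Regions named were those in all 8 NIPBL lists or in most PolII, RAD21 or H3K27me3 lists, near Hox clusters, in the listed genes, and the genes with most regions, and of these the ones that a sentence needed. The regions whose sequences are printed, and those named for RE1, linkers or tRNA genes, were chosen after their values were seen. Regions, gene lists and words were chosen with earlier results of these data known. Scripts were tested on simulated data and ran in Python 3.11.15 with numpy 2.4.6, pandas 2.3.3 and scipy 1.17.1. Alternatives varied the number of NIPBL lists, the peak threshold, the distance and overlap that count, the exclusion lists, the equalisation of list sizes, the tag under which the cells of a RAD21 library are filed, the replicate block and each library in turn.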

Additional observations from a re-analysis of the deposited data

How the results depend on the processing

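All 4 class comparisons (PolII and RAD21 against the H3K27ac and CTCF classes) kept their direction and stayed past the threshold under the 27 settings run for PolII and the 36 run for RAD21, with adjusted p between 0.00781 and 0.0156 (exact permutation tests), but not their size. The PolII difference from the CTCF class (-1.40 points) was -5.55 with NIPBL −log10 q of at least 5, -3.87 with mutant lists excluded, -2.27 with the 1 kb distance, -0.694 with 50% covered, -0.546 with PolII −log10 q of at least 5 and -0.711 with lists of equal size. RAD21 against the H3K27ac class (-16.8) was -4.85, -7.40 and -6.58 under the last 3, and -8.82 in exactly 3 lists. The PolII time relation stayed short of the threshold in its 26 settings. The number of regions was 5257 with at least 2 NIPBL lists, 885 with at least 4, 584 with NIPBL peaks of −log10 q at least 5, and 1221 with no wt H3K27ac or CTCF region within 1 kb. It was 1076 to 1854 with single NIPBL libraries left out, lowest without 144 h and 1253 without 168 h. With at least 2 lists the share with PolII was 3.61%, with RAD21 43.2%, with H3K27me3 3.10%, with pSer2 PolII 3.82%, near a start 7.10% and with mutant H3K27ac 19.2%. With at least 4 lists the first 4 were 7.57, 59.1, 5.08 and 8.81%. With −log10 q of at least 5 the RAD21 share was 67.0%. With the 1 kb distance PolII was 3.52%, H3K27me3 1.97%, starts 5.49% and mutant H3K27ac 16.9%. With mutant lists added to the exclusion PolII was 3.77%, RAD21 48.8% and mutant H3K27ac 0% by construction. With at least 50% of a region covered, PolII was 2.66%, RAD21 30.1%, H3K27me3 1.75% and pSer2 PolII 3.03%. With single NIPBL libraries left out the shares were 4.82 to 7.90% for PolII, 50.6 to 60.2% for RAD21, 3.29 to 5.07% for H3K27me3, 6.01 to 8.27% for pSer2 PolII and 8.24 to 10.5% near a start. The cause of these shifts was not tested.

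RAD21 over time passed the threshold within the libraries filed under a cell line (rho 0.929) and without the 168 h library, and ranged from 0.429 to 0.964 with single libraries left out. With the replicate block r, and not rho, was 0.587, short of the threshold. With replicate number 1 alone, chosen after seeing the data, rho was 0.381. The replicate numbers came from the labels only, and the block changed no class comparison. The 72 h and 84 h NIPBL lists, the single CTCF stages and libraries of unequal depth, which was not modelled, limit what can be said of early stages and of absence.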
